A study of Homo sapiens with 2 samples.

Results

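Histone genes, the chromatin assembly gene CHAF1B and the DNA methylation maintenance gene UHRF1 were compared between 2 pancreatic cancer RNA libraries, one of control cells and one of cells in which the transcription factor MYB was silenced. The group comprises every locus of the deposited table whose gene name starts with HIST, plus CHAF1B and UHRF1. It holds 8 of the 836 listed loci: HIST1H1B, HIST1H1E, HIST1H4D, HIST1H4L, HIST2H2BF, the joint locus of HIST1H2BO and OR2B6, CHAF1B and UHRF1. All were selected on the outcome they describe, because the table lists only loci whose unadjusted p-value in the authors' deposited table is 0.04995 or less. Directions and ratios are therefore given as descriptions, with no test. Histone genes that are not listed were not analysed here.

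The cells were MiaPaCa, an established human pancreatic cancer line. The Scr control library came from cells transfected with a scrambled hairpin plasmid, pGFP-V-RS-Scr, and the MYB-silenced library from cells transfected with the hairpin plasmid pGFP-V-RS-shMYB. Both were stable pools, not clones, kept in puromycin at 2 µg/ml, and the labels name the control cells MYB-overexpression although the protocols describe no overexpression plasmid. Each group has 1 library, so no value below has an error, and sequencing depth is unknown. MYB itself was at 981 FPKM in control, the highest control level of all listed loci, and 0.554 FPKM in silenced cells. Whether the control cells carried an overexpression construct cannot be told from the labels. FPKM scale fragments to the length of the transcript and to the number of mapped fragments, so levels are per length. Of 30 marker genes of epithelial, pancreatic, immune, endothelial and fibroblast cells, 1 is listed (INS, in a joint locus with IGF2 at 2.43 and 4.72 FPKM), so the cell type could not be checked against its markers. That set holds no muscle or pituitary genes, and loci of both kinds are listed. GH1, the pituitary growth hormone gene, has 2 records, at 42.9 and 4.53 FPKM in control cells and both at 0 after silencing, and is named here after its values were seen. The source of the GH1 RNA was not tested. The muscle loci are given beside the histone values.

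A nucleosome wraps DNA around a core of histones H2A, H2B, H3 and H4, and the linker histone H1 binds where the DNA enters and leaves. Most histone genes have many copies, are transcribed in S phase and give short, intronless mRNAs that end in a stem-loop and not in a poly(A) tail. CHAF1B encodes the p60 subunit of CAF-1, the chaperone that deposits new H3 and H4 behind the replication fork. UHRF1 binds hemimethylated DNA there and recruits the maintenance methyltransferase DNMT1. Whether poly(A) RNA was selected before sequencing is not stated in the labels.

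The listed histone loci come from 3 of the 5 histone families. Of protein-coding genes that RefSeq (GRCh38.p14) knows by an older HIST symbol, 2 of 6 H1 genes, 2 of 14 H2B genes and 2 of 15 H4 genes are listed. No H2A gene of 17 and no H3 gene of 15 is listed. The share of all genes that are listed was not computed, so nothing about the families is read from these counts.

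Histone H4 genes are known for encoding one and the same protein from different DNA, and the listed copies show how far the DNA differs. HIST1H4D and HIST1H4L have coding sequences of 312 bases in GENCODE release 29, of which 264 are the same and 48 differ (84.6% identity). Their first 90 coding bases, counted from the start codon, are shown with the 19 differing bases in capitals.
HIST1H4D: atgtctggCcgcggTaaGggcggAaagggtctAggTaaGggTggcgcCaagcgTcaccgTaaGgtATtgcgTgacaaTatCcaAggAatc
HIST1H4L: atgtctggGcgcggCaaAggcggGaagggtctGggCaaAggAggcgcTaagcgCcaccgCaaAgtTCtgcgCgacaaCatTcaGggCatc
Against 11 other H4 genes of the same coding length, identity ranged from 79.8% to 84.6% for HIST1H4D and from 79.2% to 85.9% for HIST1H4L. Of the windows of 36 bases along either coding sequence, 1.08% were found in another gene, and in each case that gene was the other member of the pair. No window of 50 bases was shared with another gene. Exact sharing was thus rare between these H4 genes, while reads with mismatches were not examined.

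The stem-loop at the end of histone mRNAs is the binding site of SLBP, the protein that takes over the role of the poly(A) tail. Its letters, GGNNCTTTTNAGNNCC, were searched on the transcript strand of GENCODE release 29 transcripts and matched 128 of 206694 (0.0619%). Among the listed histone genes it was found in 1 transcript, HIST2H2BF-201, shown with 5 bases on each side and the match in capitals.
HIST2H2BF: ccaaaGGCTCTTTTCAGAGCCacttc
That transcript has 1954 bases and runs on for 1479 bases past the stem-loop. Of the 90 GENCODE genes named HIST, 34 have a transcript with a match. The 5 other listed histone genes have annotated transcripts of 312 to 754 bases without a match. For HIST1H1B, HIST1H2BO, HIST1H4D and HIST1H4L the annotated transcript is the coding sequence alone, so the search could not reach the end of the mRNA.

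The promoters of the listed histone genes are shown because these loci were all lower in the same library. Each line gives the 150 bases before the RefSeq transcription start, in the direction of the gene, on GRCh38.p14. Capitals mark matches, on either strand, to TATAAA (the TATA box), the NF-Y site CCAAT and the H1 box of linker histone genes AAACACA, and to TTTNGCGC (an E2F site) and AACNG (the core of MYB sites). AACNG can overlap TATAAA, as it does in HIST1H1E.
HIST1H1B (chr6:27867589-27867738, - strand): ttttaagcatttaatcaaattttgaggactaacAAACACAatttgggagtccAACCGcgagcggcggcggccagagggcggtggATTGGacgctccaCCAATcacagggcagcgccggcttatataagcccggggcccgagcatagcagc
HIST1H1E (chr6:26156179-26156328, + strand): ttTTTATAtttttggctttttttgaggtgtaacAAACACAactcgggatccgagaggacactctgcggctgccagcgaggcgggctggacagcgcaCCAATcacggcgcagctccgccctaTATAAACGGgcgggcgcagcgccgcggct
HIST1H4D (chr6:26189113-26189262, - strand): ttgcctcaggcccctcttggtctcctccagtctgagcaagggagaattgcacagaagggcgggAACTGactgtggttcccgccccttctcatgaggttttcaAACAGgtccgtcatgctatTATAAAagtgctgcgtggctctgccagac
HIST1H4L (chr6:27873535-27873684, - strand): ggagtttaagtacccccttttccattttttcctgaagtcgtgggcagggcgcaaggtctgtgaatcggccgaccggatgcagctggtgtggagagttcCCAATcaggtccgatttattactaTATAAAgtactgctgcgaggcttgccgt
HIST1H2BO (chr6:27893275-27893424, + strand): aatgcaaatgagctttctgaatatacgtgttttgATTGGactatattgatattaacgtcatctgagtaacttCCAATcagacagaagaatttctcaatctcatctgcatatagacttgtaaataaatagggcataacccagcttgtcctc
HIST2H2BF (chr1:149812371-149812520, - strand): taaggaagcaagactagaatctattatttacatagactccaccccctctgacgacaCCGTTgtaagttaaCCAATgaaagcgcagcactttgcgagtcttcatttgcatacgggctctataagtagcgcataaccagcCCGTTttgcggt
Both linker histone promoters hold AAACACA with its first base 117 bases before the start, a motif found in 4.82% of all 35116 promoter windows of 250 bases and in 9.09% of the 66 windows of genes with an older HIST symbol. CCAAT was found in 5 of the 6 listed histone windows, in 84.8% of those 66 windows and in 32.0% of all windows. TATAAA lies 28 or 29 bases before the start in HIST1H1E, HIST1H4D and HIST1H4L, and 214 bases before it, on the other strand, in HIST1H2BO. It is held by 68.2% of the 66 HIST windows and 10.7% of all windows. AACNG was found in 5 of 6 listed histone windows, in 80.3% of the 66 and in 70.6% of all. TTTNGCGC was found in HIST1H2BO, 197 bases before the start and so outside the printed stretch, in 18.2% of the 66 windows and in 1.51% of all. These motifs thus differ in how common they are among HIST genes, from 9.09% of the 66 windows for the H1 box to 84.8% for the NF-Y site. Nothing particular to the listed histone promoters is read from these counts. The CHAF1B window held none of the 5 motifs. Of 3 UHRF1 windows, CCAAT was in 2, TTTNGCGC in 1 and AACNG in 1. A match is a description of letters and not evidence of binding.

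Linker histones were lower in the MYB-silenced library. HIST1H1B (histone H1.5, chromosome 6, 27834570 to 27835359 on hg19) reached 2.92 FPKM in control cells and 0.388 FPKM after silencing, which left 13.3% of the control level. HIST1H1E (histone H1.4, chromosome 6, 26156559 to 26157343) was at 3.18 and 0.715 FPKM, which left 22.5%. In bulk RNA, fewer cells that make a transcript and less of it per cell cannot be told apart. The authors' deposited table gives them p-values of 0.04475 and 0.0396, close to the limit for being listed.

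Both H4 loci were listed at 0 in the MYB-silenced library. HIST1H4D (chromosome 6, 26188938 to 26189304) had 2.16 FPKM in control cells, and HIST1H4L (chromosome 6, 27840926 to 27841289) at 1.56 FPKM. No fold is given against 0, which can also be a failed estimate. Both carry the same p-value in the authors' deposited table, 0.00535, and no other listed locus has that value. HIST1H4L has a mean of 0.779 FPKM over the libraries and lies just under the level of 1 FPKM used for counts below, while HIST1H4D lies just above it at 1.08 FPKM.

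The H2B loci were lower as well, but their values are harder to assign to 1 gene. HIST2H2BF (chromosome 1, 149754245 to 149783928) was at 2.03 and 0.234 FPKM, so that 11.5% of the control level was left, the lowest share among members above 0. Of its windows of 50 bases, 26.9% occur in other genes, most often the pseudogenes HIST2H2BA and HIST2H2BB on the same chromosome. The joint locus of HIST1H2BO and the odorant receptor gene OR2B6 (chromosome 6, 27861203 to 27925960) was at 4.18 and 1.12 FPKM, which left 26.7%. The table does not divide this value between its genes, and 13.6% of the 50-base windows of HIST1H2BO occur in other genes, first HIST1H2BK. The authors' deposited table gives p-values of 0.036 for HIST2H2BF and 0.04955 for the joint locus.

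The assembly and maintenance genes were expressed at higher levels and differed by less, a contrast that the p-value limit for being listed itself affects. HIST1H1B, at 7.52-fold lower, has a p-value in the authors' deposited table close to that of CHAF1B. Nothing is therefore read from the difference in size. CHAF1B (chromosome 21, 37757689 to 37789125) reached 26.9 FPKM in control and 15.7 FPKM in silenced cells, a 1.72-fold lower level with a p-value of 0.04865 in the authors' deposited table. UHRF1 (chromosome 19, 4909510 to 4962165) was at 38.2 and 17.6 FPKM, 2.16-fold lower, with 0.0027 in the authors' deposited table. For UHRF1, 21.4% of 50-base windows (1109 of 5183) are shared with other genes, 1072 of them with a processed pseudogene on chromosome 12 (AC112777.1). For CHAF1B, that share was 2.64%.

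**Figure D1:**
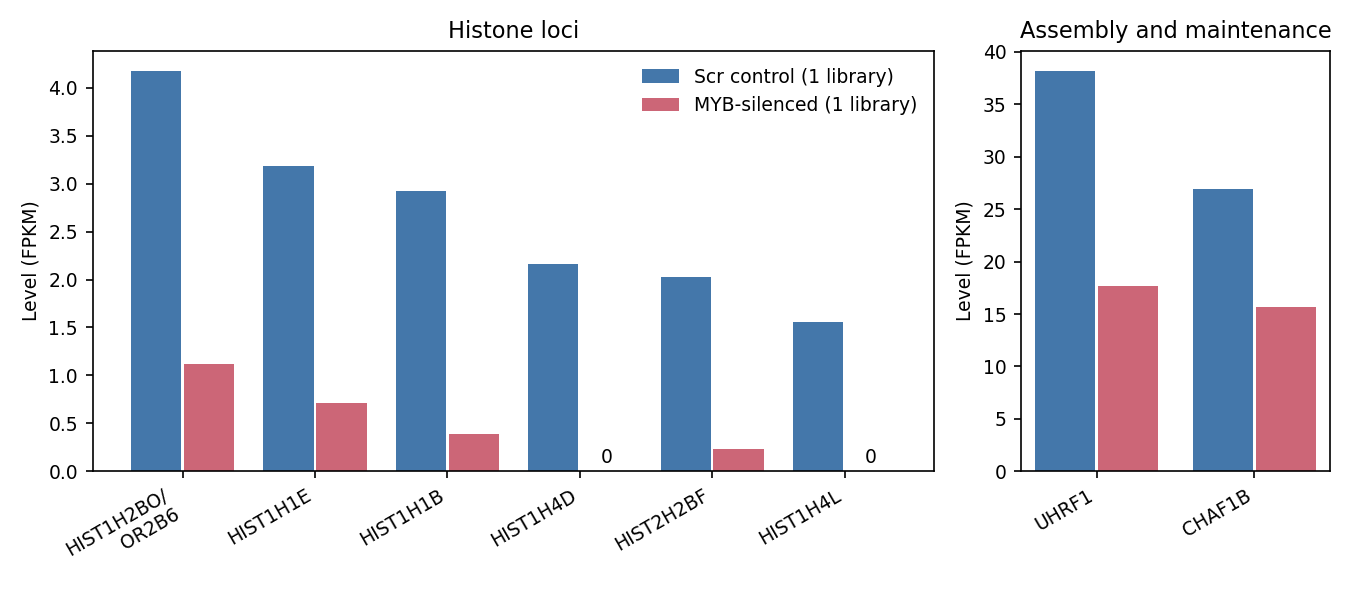
Levels (FPKM) of the 6 histone loci (left) and of CHAF1B and UHRF1 (right, another scale), with 1 bar per library and no error bars because each group has 1 library. Every locus is lower in the MYB-silenced library, and HIST1H4D and HIST1H4L are listed at 0 there.

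Counted together, all 8 loci were lower in the MYB-silenced library. The following counts use log2(MYB-silenced + 0.5) minus log2(Scr control + 0.5), which understates the difference of weakly expressed loci, and only loci whose mean over the libraries reaches 1 FPKM. Of the 7 members that pass that level, 7 were lower, where 62.4% of the 797 listed loci that pass were lower. At least 2-fold lower were 6 of the 7, all but CHAF1B and with HIST1H4D at 0 among them, against 24.7% of the 797 loci. None was at least 2-fold higher, against 19.9% of the 797 loci. Since being listed fixed a large part of these differences, nothing is read from the shares. The median log2 ratio of the 6 members above 0 was -1.57, and that of the listed loci above 0 at that level was -0.80.

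On that scale the log2 ratios were -1.95 for HIST1H1B, -1.60 for HIST1H1E, -1.78 for HIST2H2BF, -1.53 for the joint locus of HIST1H2BO, -1.09 for UHRF1 and -0.76 for CHAF1B. Subtracting the median of the listed loci, which were selected for change, turned CHAF1B to 0.041 and left the other 5 lower. It reduced the loci at least 2-fold lower from 6 to 2, HIST1H1B at -1.14 and HIST1H4D. HIST1H4D is at 0 after silencing, so its ratio depends on the pseudocount. With a pseudocount of 0.1 in place of 0.5, HIST1H1B and HIST2H2BF were at -2.63 and -2.67.

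Ratios of the listed loci vary with level, and the histone loci lie at the low end. All 6 lay between 1.56 and 4.18 FPKM in the Scr control library, against a median of 13.9 FPKM for all listed loci. The other listed loci in that range number 111, of which 42.3% were lower and 31.5% at least 2-fold lower. For the 40 of these that were lower and above 0 in both libraries, the deposited log2 ratio, which has no pseudocount, had a median of -1.74 and ranged from -4.66 to -0.88, while the median of all 496 lower loci above 0 was -0.98. The 4 histone loci above 0 had a median of -2.53 and ranged from -3.12 to -1.90 in the same column of the authors' deposited table, inside the range of the other loci of that level. A deposited ratio at or under the histone median was found for 6 of the 40.

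The listed loci of a set of striated muscle genes lay at the same low levels and were lower in the same library. Of 32 such genes, a list chosen after the values were seen, 7 are listed and all 7 were lower. The count covers these 32 genes only, and other listed loci were not sorted by muscle expression. Of the 797 loci that reach a mean of 1 FPKM, a level some of the 7 do not reach, 62.4% were lower. The choice of the list largely fixed its count, so nothing is read from it. The summed level of the 7 loci was 13.7 FPKM in control and 1.48 FPKM in silenced cells. MB, which encodes myoglobin, was at 3.05 and 0.736 FPKM, and the intermediate filament gene DES at 1.97 and 0.0780 FPKM. The sarcomere genes TCAP (1.92 and 0.246 FPKM), TNNC1 (2.09 and 0.304 FPKM) and MYH7 (1.84 and 0.118 FPKM) were also lower. MYL3 and TNNT2 were listed at 0 after silencing. The control levels of the 7 loci, 1.05 to 3.05 FPKM, overlap those of the histone loci, and their part in the histone values was not tested.

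**Figure D2:**
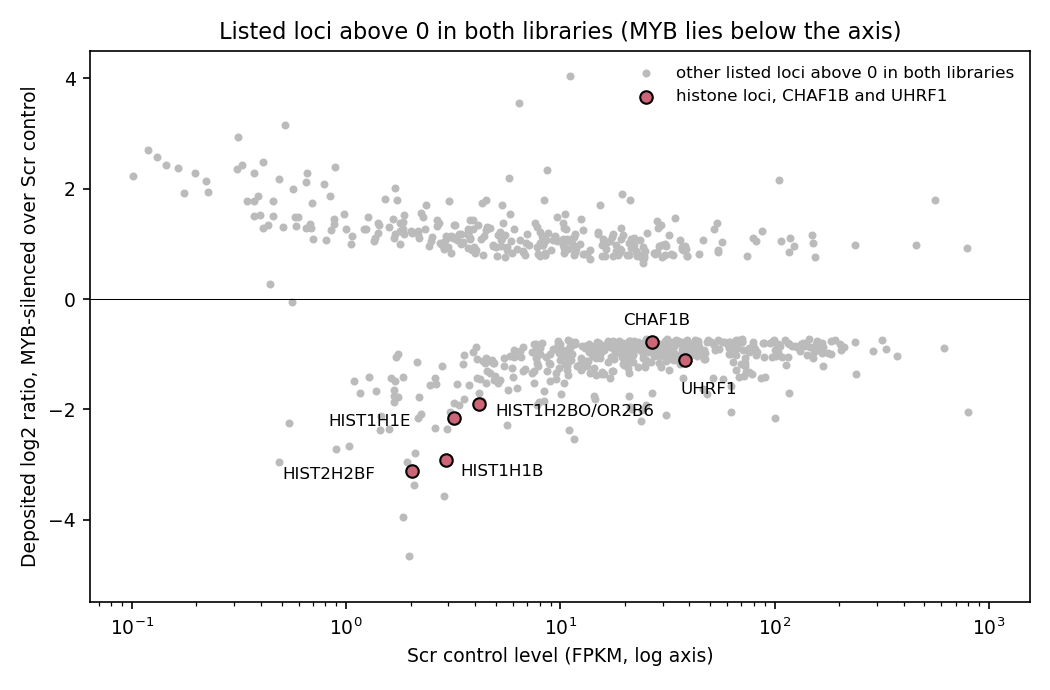
Deposited log2 ratio (MYB-silenced over Scr control) against the Scr control level (FPKM, log axis) for listed loci above 0 in both libraries, 1 point per locus, with histone loci, CHAF1B and UHRF1 in red. Ratios of lower loci spread further from 0 at low control levels, and the 4 histone loci lie there between -3.12 and -1.90.

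The number of fragments behind the histone values is small by the values' own scale. FPKM times length in kilobases gives an upper limit for fragments per 1000000 mapped fragments. For HIST1H1B, with a deposited span of 790 bases, that limit was 2.31 in control and 0.307 in silenced cells. For HIST1H1E (785 bases) it was 2.50 and 0.561, for HIST1H4D (367 bases) 0.794 and for HIST1H4L (364 bases) 0.567 in the control. With the longest annotated transcript, the limit for HIST2H2BF was 3.96 and 0.456. For CHAF1B it was 121 and 70.3, and for UHRF1 165 and 76.0. These limits were far lower for the 5 histone loci given than for CHAF1B and UHRF1. None was computed for the joint locus of HIST1H2BO, and how many fragments were sequenced is unknown.

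The histone loci cluster on chromosome 6. From HIST1H1E to the joint locus of HIST1H2BO, over 1.77 Mb, the table lists 7 loci, and 5 are members. The other 2 were the butyrophilin pseudogene BTN2A3P, lower at 2.60 and 0.965 FPKM, and the serine protease gene PRSS16, higher at 2.17 and 4.91 FPKM. HIST1H1B and HIST1H4L are 5.57 kb apart, HIST1H1E and HIST1H4D 31.6 kb apart, and the joint locus begins 19.9 kb after HIST1H4L. Within 1 Mb of these loci the zinc finger gene ZSCAN12 was also listed, at 4.44 and 1.99 FPKM. HIST2H2BF lies on chromosome 1, where the splicing factor genes SF3B4 (32.7 and 19.0 FPKM) and PRPF3 (21.1 and 12.4 FPKM) were listed within 1 Mb. Near UHRF1, SAFB (33.5 and 18.7 FPKM) and SAFB2 (14.6 and 6.99 FPKM) were lower. CREB3L3 (0.226 and 0.866 FPKM) was higher there, and SNORD37 was listed at 0 in control and 944 FPKM in silenced cells. No listed locus lay within 1 Mb of CHAF1B.

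Other genes that handle histones around replication were lower where they were listed. Of 29 histone chaperone and nucleosome assembly genes, 4 are listed and all 4 were lower (median log2 ratio -0.77), where 62.4% of the 797 listed loci were lower and the median of those above 0 was -0.80. After subtracting that median, 3 of the 4 were higher. Besides CHAF1B these were DNAJC9, a co-chaperone for H3 and H4, at 33.0 and 17.8 FPKM. SUPT16H, a subunit of the chaperone FACT, was at 95.3 and 54.9 FPKM. NAP1L4, an H2A and H2B chaperone, was at 70.7 and 42.8 FPKM. Other CAF-1 subunits are not listed, and nothing is read from the count of 4.

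The regulators of histone gene transcription included in a list of 23 genes had 2 listed members, both lower, where 62.4% of the 797 listed loci were lower. NPAT, the coactivator of replication-dependent histone genes, was at 9.75 FPKM in control and 5.57 FPKM in silenced cells, a log2 ratio of -0.76, but 0.045 after subtracting the median of the listed loci. CDK2, the kinase that phosphorylates NPAT together with cyclin E, was at 30.5 and 16.4 FPKM, a log2 ratio of -0.87. SLBP itself is not listed, and nothing is read from the count of 2. Of 14 genes on a list of replication-independent histone variants, such as H2AFZ and H3F3A, none is listed.

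Of 18 genes of DNA methylation maintenance and removal, 2 are listed, UHRF1 and HELLS. HELLS, a chromatin remodeller needed for DNA methylation, was at 20.9 and 8.28 FPKM, a log2 ratio of -1.29. It was lower by more than UHRF1, but without replicates this order has no error. DNMT1 is not listed.

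Among 73 histone-modifying enzymes, 5 of the 7 listed were lower and 2 higher (median log2 ratio -0.83), where 62.4% of the 797 listed loci were lower. Nothing is read from this count. The lower ones included EZH2, the H3K27 methyltransferase, at 27.5 and 13.4 FPKM, its partner EED at 15.2 and 8.33 FPKM, and SUV39H1, an H3K9 methyltransferase, at 17.1 and 9.41 FPKM. The deacetylase HDAC9 was lower, at 17.0 and 6.31 FPKM, while HDAC5 was higher, at 3.70 and 7.03 FPKM. The acetyltransferase KAT6B was at 8.23 and 4.71 FPKM, a log2 ratio of -0.74 but 0.056 after subtracting the median of the listed loci. KDM6B, the H3K27 demethylase, was higher at 3.08 and 5.48 FPKM and is named here after its values were seen.

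Of 44 chromatin remodelling and high-mobility-group genes, 3 of 4 listed were lower, where 62.4% of the 797 listed loci were lower. Nothing is read from this count. HMGB1, an abundant DNA-bending chromatin protein, was at 287 FPKM in control and 150 FPKM in silenced cells. HMGB3 (50.7 and 29.7 FPKM) and ARID1A (7.49 and 4.25 FPKM) were lower, but at 0.039 and 0.050 on the log2 scale after subtracting the median of the listed loci. The remodeller CHD3 was higher, at 5.64 and 10.5 FPKM.

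Replication fork and licensing genes, with which histone synthesis is coupled, had 26 of 57 members listed, and all 26 were lower before and after subtracting the median of the listed loci. Of the 797 listed loci, 62.4% were lower before and 49.9% after, which the subtraction itself largely sets. The list was chosen with earlier results of these data known, so nothing is read from the count of 26. After the subtraction some replication loci were close to 0, such as WDHD1 (-0.0097), GINS4 (-0.012) and PCNA (-0.071), while CLSPN was at -0.77. WDHD1 and GINS4 are named here after their values were seen. The 26 loci had a median log2 ratio of -0.98 before subtraction, between that of the 4 histone loci above 0 (-1.69) and that of the chaperones (-0.77). Nothing is read from this order, since the size of listed ratios varies with level. PCNA, the sliding clamp to which CAF-1 binds, was at 168 and 91.7 FPKM and is named here after its values were seen. The largest difference was that of the checkpoint mediator CLSPN, at 10.1 and 3.06 FPKM (log2 ratio -1.57), followed by MCM10 (-1.41), RFC3 (-1.34), POLE2 (-1.29), TIPIN (-1.19) and MCM4 (-1.14). Of 19 E2F and RB family genes, 3 are listed and all 3 were lower, where 62.4% of the 797 listed loci were lower. They were the repressor E2F8 (4.53 and 1.84 FPKM), RBL1 (13.0 and 5.68 FPKM) and the MuvB subunit LIN9 (12.8 and 5.73 FPKM). Nothing is read from the count of 3. Whether these lists differ from each other was not tested, since each group has 1 library.

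**Figure D3:**
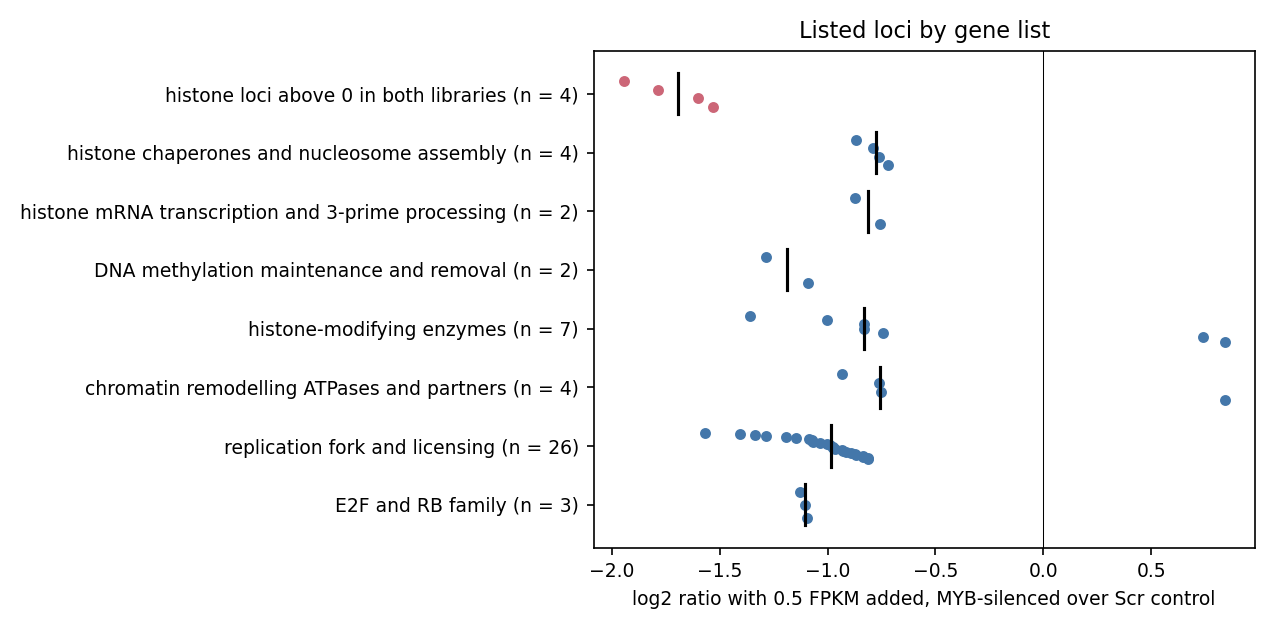
log2 ratio (0.5 FPKM added, MYB-silenced over Scr control) of the listed loci of each gene list, 1 point per locus, with the median as a vertical line and no error bars. The 4 histone loci above 0 lie between -1.95 and -1.53, and HDAC5, KDM6B and CHD3 are the loci to the right of 0.

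Transcript GC content moved with direction in the listed loci, and the listed H1 and H4 genes are GC-rich. For HIST1H1B, HIST1H4D and HIST1H4L the value is that of the coding sequence alone. Medians over a gene's transcripts were 44.7% for lower loci and 60.4% for higher loci. HIST1H1B was at 59.3%, HIST1H1E at 60.1%, HIST1H4D at 57.4%, HIST1H4L at 59.0% and UHRF1 at 58.1%, all in the fourth of 5 bins by GC content, where 78 of 156 loci were lower. HIST2H2BF (48.6%), CHAF1B (48.1%) and the joint locus of HIST1H2BO (51.6%) lie in the third bin, where 109 of 157 loci were lower. The value of the joint locus also takes in OR2B6. The members were thus lower in bins that hold both directions, and the part of GC content in their ratios was not tested.

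**Figure D4:**
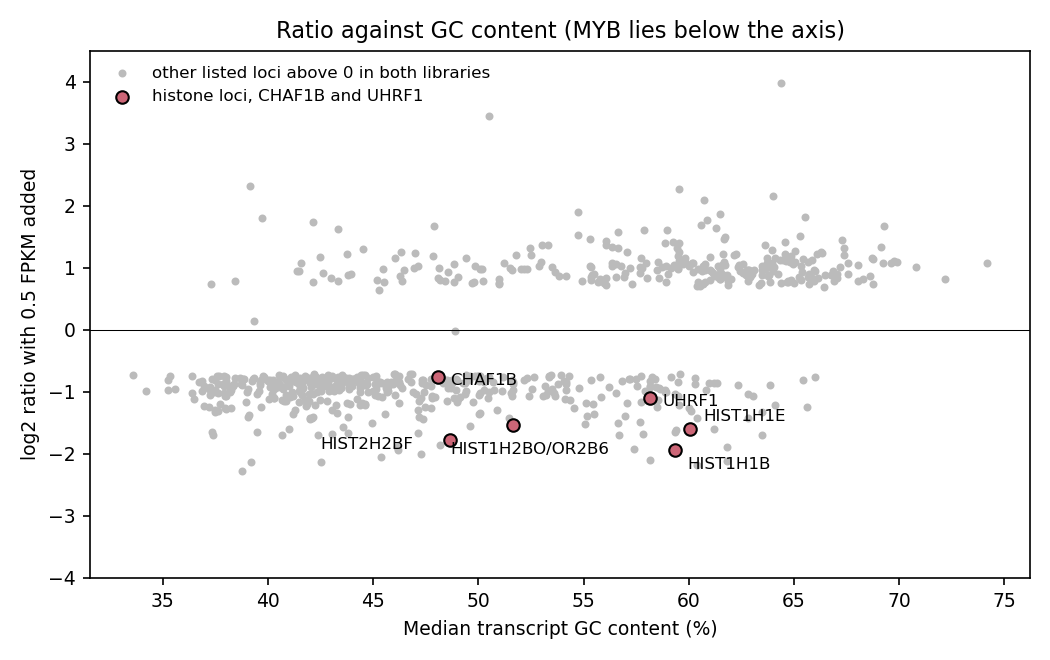
log2 ratio (0.5 FPKM added, MYB-silenced over Scr control) against median transcript GC content (%) for listed loci above 0 in both libraries, 1 point per locus, members in red. Higher loci gather at high GC content, and HIST1H1B and HIST1H1E at 59.3% and 60.1% lie below 0.

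Loci with the most similar pair of levels were found by distance in log2(FPKM + 0.5) over the 2 libraries, a likeness over 2 points only. Closest to CHAF1B were the kinase gene VRK1 (27.9 and 15.7 FPKM), ORC6, a subunit of the origin recognition complex (27.8 and 15.4 FPKM), and ARHGAP12 (28.4 and 16.2 FPKM). Closest to UHRF1 were CCDC68 (37.0 and 17.6 FPKM), SMCHD1 (37.1 and 18.5 FPKM) and PPP1R2 (36.7 and 16.9 FPKM). For the histones, HIST1H1B lay nearest to ADM, KRT16 and ALOXE3, and HIST1H1E to SEMA3D, MB and SYT1. HIST2H2BF lay nearest to TCAP, FAM212A and TNNC1, and the joint locus of HIST1H2BO to RCBTB2, PER2 and ACOX2. Of these neighbours, MB, TCAP and TNNC1 are on the muscle list, which was chosen after the values were seen. The other neighbours of the histone loci are not on it, and nothing is read from this likeness.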

How the data were processed

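RNA-seq of 1 Scr control and 1 MYB-silenced library was used. The deposited table holds FPKM values made by the authors, a signed fold score, a log2 ratio without pseudocount and an unadjusted p-value, per the file headers. Per the submitters' processing notes, CASAVA 1.8.2, TopHat, Bowtie, Cufflinks and hg19 were used, in roles that are not stated. Annotation, scaling between libraries, strand and read length are not stated in the labels or headers. The deposited log2 ratio was within 0.001 of that of the FPKM values for 801 of 801 loci above 0. Ratios were computed with pandas 2.3.3 and checked on simulated data. No test was run. Deposited starts were raised by 1, since the RefSeq length equalled end minus start for 41 loci and end minus start plus 1 for 7, of 753. GC content was found for 783 of 836 loci (93.7%). Named genes are all members, MYB, up to 6 listed loci per list, the 3 nearest loci by level and those within 1 Mb. GH1, KDM6B, PCNA, WDHD1 and GINS4 are also named, after their values were seen. Members and lists were chosen with earlier results of these data known, and the muscle list after the values were seen. Protein sequences were not used here.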

Additional observations from a re-analysis of the deposited data

How the results depend on the processing

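The 7 members that average 1 FPKM or more were all lower under both other pseudocounts and at 1.5-fold, and with no level filter all 8 were. Subtracting the median log2 ratio of the listed loci, -0.80, left 6 lower and 1 higher. At least 2-fold lower were 2 of them, with HIST1H4D at 0 among these. The subtraction reversed CHAF1B (0.041), SUPT16H (0.012), NAP1L4 (0.081), NPAT (0.045), KAT6B (0.056), ARID1A (0.050) and HMGB3 (0.039). The medians became -0.76 for members, 0.026 for chaperones, -0.013 for histone gene transcription, -0.39 for DNA methylation, -0.029 for modifying enzymes, 0.045 for remodelling, -0.18 for replication and -0.30 for the E2F and RB family. The listed loci at least 2-fold lower and higher then made up 3.89% and 37.6%. They made up 62.4% and 37.6% at 1.5-fold, 6.02% and 4.39% at 3-fold, and 57.1% and 33.3% at a deposited p-value of 0.01 or less. With a mean of at least 5 FPKM, 2 members (CHAF1B and UHRF1) were left, both lower, 1 of them at least 2-fold, with a median of -0.93. At a deposited p-value of 0.01 or less, 2 were left and lower, both at least 2-fold (UHRF1 and HIST1H4D). With 0.5 FPKM added, 4 of the members were at least 3-fold lower, HIST1H4D at 0 among them. The joint locus was not, although it was 3.74-fold lower without a pseudocount. Leaving out loci at 0, or the joint locus, left 5 at least 2-fold lower, alternatives chosen after seeing the data, as was subtracting the median for the count of lower members. A value without replicates was taken as unmoved within 1.5-fold. No paired analysis was possible because each group has 1 library, and none could be left out. Depth is unknown, so levels under 1 FPKM are the least certain.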
